A study of Mus musculus with 16 samples.

Results

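The potassium channel gene family was taken as every gene whose symbol begins with Kcn. This rule gave 95 of the 22609 genes counted in 16 RNA-seq libraries of sorted dorsal root ganglion cells, and it used no expression value. By symbol, 40 members encode pore subunits of voltage-gated channels, 12 auxiliary subunits of those channels, 15 inward rectifiers and 14 two-pore channels. A further 8 fall by symbol prefix in the class of calcium- or sodium-activated pores, and 4 encode auxiliary subunits of calcium-activated channels. The other 2 are Kcnq1ot1, a non-coding RNA that overlaps Kcnq1, and Kcnrg, a soluble regulator of voltage-gated channels.

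Potassium channels let potassium leave the cell along its gradient, which draws the membrane back towards rest and limits firing. Voltage-gated members open on depolarisation: delayed rectifiers end the action potential, A-type channels open and close quickly and space the spikes, and M-type channels hold back repeated firing. Two-pore channels and inward rectifiers set the resting potential of neurons and, in satellite glia, take up the potassium that neurons release. Channels opened by calcium or sodium contribute to the hyperpolarisation that follows spikes. In dorsal root ganglia the family is studied for its part in the excitability of pain-sensing neurons.

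The cells came from the L3-L5 ganglia of male mice, 8 to 16 weeks old, and were sorted by flow cytometry for WGA-488, a fluorescent lectin injected into the paw and carried back along axons. All mice carried LTbR-fl/fl, floxed alleles of Ltbr, which encodes the lymphotoxin beta receptor. Mice called fl/fl had these alleles without Cre, and mice called CKO also carried Nav1.8-cre, in which the promoter of Scn10a drives Cre in Nav1.8-positive neurons, most of them nociceptors. Each genotype received PTX (paclitaxel, a chemotherapy drug that binds microtubules) at 6 mg/kg intraperitoneally, in 3 injections 2 days apart, or vehicle, labelled as water. The tracer was given on day 16 and tissue taken on day 18 after the last injection. The labels gave 4 libraries per group, whereas the design text gives 3 per group, and the text of the treatment protocol names PTX for vehicle libraries too. Nothing in the labels says that the libraries came from separate animals, so p-values measure the spread between libraries, which may be technical. The titles put PTX libraries 1 and 2 of each genotype on one date and 3 and 4 on the next day, and the vehicle libraries likewise on 2 later dates, so treatment and date cannot be told apart, while both genotypes were present on every date. What the dates mark is not stated.

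Libraries held 7906504 to 11668007 counts on genes. The tracer sort is labelled as neurons, and none of 15 sensory neuron markers was at 0 throughout, but markers of other cells were also present. The mean log2 value of the neuronal markers, in CPM (counts scaled to a common library size) with 1 added, was 9.11 to 10.0 in PTX fl/fl libraries, 8.68 to 9.97 in PTX CKO, 5.37 to 8.02 in vehicle fl/fl and 5.63 to 7.55 in vehicle CKO. For 9 markers of myelinating Schwann cells the order was opposite, with 5.40 to 6.59, 5.56 to 6.72, 7.96 to 8.48 and 8.02 to 8.61. Neutrophil markers took 0.542 to 10.2% of the counts in PTX fl/fl, 0.0304 to 11.3% in PTX CKO, 8.18 to 17.7% in vehicle fl/fl and 7.29 to 18.7% in vehicle CKO, with overlap between treatments. The means of the 15 sensory neuron markers and of the Schwann cell markers thus did not overlap between treatments in either genotype. A separate list of 10 markers of myelinated large-diameter neurons did overlap. Its mean was 3.96 to 4.67 in PTX fl/fl and 4.15 to 5.37 in PTX CKO. After vehicle it was 3.68 to 5.89 in fl/fl and 3.75 to 5.44 in CKO. The part of these markers in the results below was not tested beyond the covariates given with the counts of called members. In bulk samples fewer cells of a type and less RNA per cell cannot be told apart. Ltbr, the targeted gene, had 6.06, 8.61, 12.2 and 15.6 CPM in PTX fl/fl, 23.3, 5.88, 19.5 and 28.4 in PTX CKO, 42.4, 51.4, 48.3 and 46.8 in vehicle fl/fl, and 99.0, 54.3, 33.1 and 32.3 in vehicle CKO. It was therefore not lower in the libraries labelled CKO under either treatment (log2 fold change 0.86 ± 0.51 under PTX and 0.21 ± 0.50 under vehicle, SE, both adjusted p = 1). After PTX, Ltbr was lower than after vehicle without overlap in both genotypes. The edgeR test described below called it in fl/fl (-2.15 ± 0.52, adjusted p = 0.0273) but not in CKO (-1.50 ± 0.51, adjusted p = 0.12). The fl/fl call was lost without library 1, 2 or 3 of either fl/fl group. Counts over the whole gene do not show whether the floxed part was deleted, and cells without active Nav1.8-cre keep intact alleles, so every statement on genotype below follows the label.

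Of the 95 members, 76 had enough counts for testing, 19 did not, and 32 had a count in all 16 libraries. Kcne2, Kcnj1, Kcnj5, Kcnk15 and Kcnv2 had 0 counts in every library. Kcng4 was the most abundant of the 19 untested members, at a mean of 1.02 CPM. Between 49 and 84 members were detected per library. Their counts made up 0.286% ± 0.0759 of all gene counts in PTX fl/fl (SD, n = 4), 0.260% ± 0.0836 in PTX CKO, 0.165% ± 0.0582 in vehicle fl/fl and 0.166% ± 0.0601 in vehicle CKO. These shares were higher in PTX, with ranges that met: the lowest PTX CKO library had 0.178% and the highest vehicle library 0.234%.

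Per kilobase of exon, which allows levels of different genes to be compared, Kcna1, Kcnn4, Kcnj10 and Kcna6 were the most abundant members in vehicle fl/fl libraries, at group means of 91.0, 65.3, 37.2 and 25.6 CPM per kb. In PTX fl/fl libraries the order was Kcnip4, Kcnab2, Kcnt1 and Kcnab1, at 82.2, 76.3, 44.7 and 36.1 CPM per kb. Kcna1 was at 21.5 and Kcnn4 at 14.5 CPM per kb there. In CKO the order was Kcna1, Kcnn4, Kcnj10 and Kcna6 after vehicle, at 92.7, 50.3, 42.7 and 28.4 CPM per kb, and Kcnab2, Kcnip4, Kcnn4 and Kcnt1 after PTX, at 72.7, 51.8, 42.4 and 33.4. The first 4 members of PTX and vehicle had no gene in common in fl/fl and shared Kcnn4 in CKO.

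**Figure D1:**
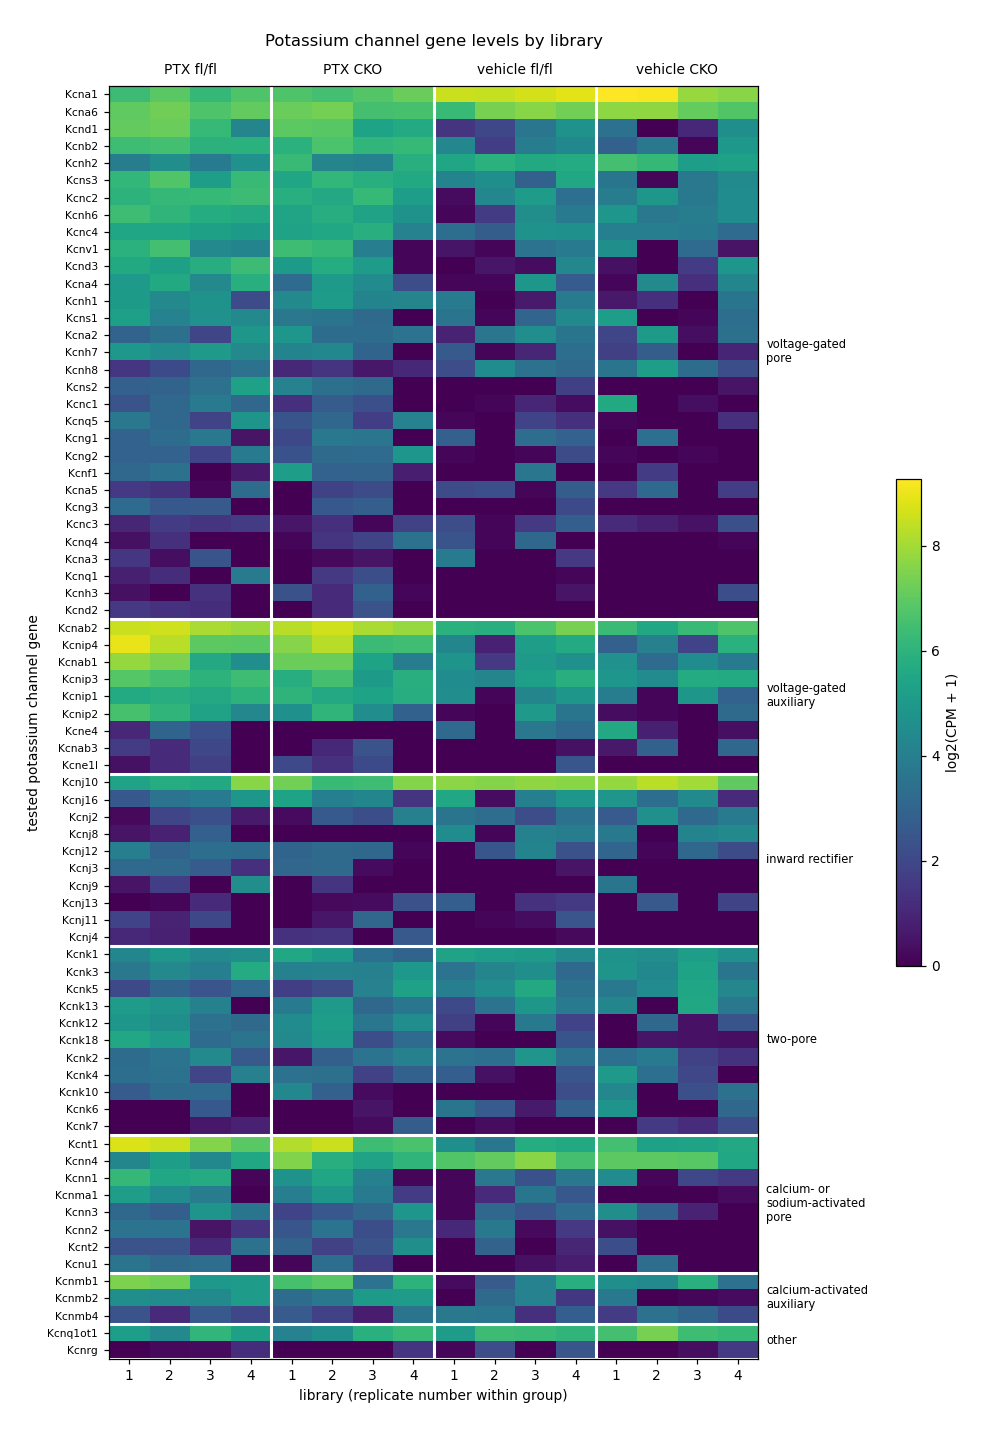
Level of 74 of the 76 tested Kcn members (rows, by subfamily) in the 16 libraries (columns, by group and replicate number), as colour on a log2(CPM + 1) scale, with brighter meaning higher; columns 1 and 2 of each group carry the earlier title date of their treatment. Voltage-gated rows are mostly brighter in the PTX columns, Kcna1 is brighter in the vehicle columns, and between 3 and 28 tested members per library had a count of 0.

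After PTX, 6 members were called as changed in at least 1 genotype. In fl/fl 2.63% of tested members were higher and 2.63% lower, near the 3.2% and 1.76% of all genes tested. In CKO 3.95% were higher and 1.32% lower, where 2.22% and 0.359% of all genes were. In fl/fl libraries, Kcnab2, a cytoplasmic beta subunit of Kv1 channels, and Kcnt1, the sodium-activated channel Slack, rose, whereas Kcna1, the delayed rectifier Kv1.1, and Kcnn4, the calcium-activated channel KCa3.1, fell. In CKO libraries, Kcnab2, Kcng2, a silent modifier subunit of Kv2 channels, and Kcnma1, the large-conductance BK channel, rose and Kcna1 fell. No member was called between genotypes. Tests were edgeR's quasi-likelihood F test with Benjamini-Hochberg adjustment over 14200 genes and a threshold of 0.05, log2 fold changes are given with their standard errors, and CPM values are scaled by library and listed by replicate number.

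Promoter sequences are shown for Kcnab2, which rose in both genotypes, and Kcnn4, which fell in fl/fl libraries, because they changed in opposite directions in fl/fl. Each is the 250 bases before a RefSeq start in GRCm38.p6, 5′ to 3′ on the gene's own strand, with the GC box (CCGCCC, or GGGCGG on the other strand, the letters bound by Sp1-type factors) in capitals. Kcnab2 lies at chr4:152477550-152477799, minus strand, and Kcnn4 at chr7:24370013-24370262, plus strand. The table has 3 starts for Kcnab2, of which the first listed is shown and is the 1 with a GC box in its window, and 1 start for Kcnn4.
Kcnab2: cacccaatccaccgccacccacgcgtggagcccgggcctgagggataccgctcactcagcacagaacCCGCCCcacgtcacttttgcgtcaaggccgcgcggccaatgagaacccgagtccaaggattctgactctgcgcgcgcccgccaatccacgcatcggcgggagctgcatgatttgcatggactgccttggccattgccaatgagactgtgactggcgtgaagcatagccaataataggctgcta
Kcnn4: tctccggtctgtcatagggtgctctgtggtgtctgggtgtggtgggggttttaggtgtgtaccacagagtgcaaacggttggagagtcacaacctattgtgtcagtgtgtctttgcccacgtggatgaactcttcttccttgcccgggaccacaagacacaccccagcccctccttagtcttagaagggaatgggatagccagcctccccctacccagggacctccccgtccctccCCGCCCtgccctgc
Both windows shown held 1 GC box and no TATAAA on either strand, and they differed in CpG dinucleotides, with 20 in the Kcnab2 window and 6 in the Kcnn4 window at 61.2% and 58.8% G and C. A GC box was present in 44.2% of the 95 windows of the 70 Kcn symbols that matched the table, and in 32.7% of all 32851 windows of this length. TATAAA was found in 3.2% of the Kcn windows and 12.4% of all. The counting used mm9, so these coordinates are for the sequences alone, and no binding was measured.

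Per length, the voltage-gated pore subunit Kcna1 was the most abundant member over all libraries, at 57.6 CPM per kb. It had 82.3, 119, 72.2 and 105 CPM in PTX fl/fl libraries and 369, 349, 411 and 479 in vehicle fl/fl libraries. In CKO the PTX libraries had 106, 89.4, 110 and 141 CPM, and the vehicle libraries 621, 587, 230 and 199. Every PTX library lay below every vehicle library in both genotypes. The log2 fold change of Kcna1 was -2.08 ± 0.35 in fl/fl (adjusted p = 0.00678) and -1.87 ± 0.35 in CKO (adjusted p = 0.0144). The call in fl/fl held without any 1 of its 8 libraries, and that in CKO was lost without PTX CKO library 1 (adjusted p = 0.0557), PTX CKO library 2 (0.0681) or vehicle CKO library 2 (0.0566). Within vehicle CKO the 2 libraries of the earlier date were at 587 and above and those of the later date at 230 and below.

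Other Kv1 pore subunits, which assemble with Kv1.1, did not pass. Kcna6 had group means of 130 ± 19.9 (SD, n = 4) and 149 ± 50.7 CPM in PTX and vehicle fl/fl, and 123 ± 34.0 and 166 ± 52.5 in CKO, a change of -0.20 ± 0.32 and -0.44 ± 0.32. Kcna2, which pairs with Kcna1 beside the nodes of myelinated axons, was at 0.874 to 22.5 CPM in vehicle fl/fl and 2.86 to 29.0 CPM in PTX fl/fl, with a change of 0.07 ± 1.13. Kcna4, an A-type channel of small neurons, had 31.0, 48.7, 19.4 and 56.7 CPM in PTX fl/fl and 0.109, 0.117, 29.3 and 5.57 in vehicle fl/fl. Its log2 difference was 2.14 ± 1.41 in fl/fl and 0.68 ± 1.36 in CKO (adjusted p = 0.441 and 0.832). The difference between Kcna1 and these neighbours was not itself tested.

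Kcnb2, a Kv2 delayed rectifier of the cell body, was higher in every PTX library than in any vehicle library of the same genotype without passing the threshold. It had 83.3, 89.6, 60.8 and 60.3 CPM in PTX fl/fl against 18.7, 2.22, 13.8 and 19.1 in vehicle fl/fl. The CKO libraries had 60.1, 98.9, 68.7 and 74.3 CPM against 6.40, 12.2, 0.128 and 29.8. These are log2 differences of 2.45 ± 0.85 and 2.63 ± 0.86 (adjusted p = 0.116 and 0.105).

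Subunits of the Kcng, Kcns and Kcnv classes are silent alone and act together with Kv2 channels. Kcng2, called in CKO, had 4.04, 8.26, 8.46 and 28.4 CPM in PTX CKO libraries and 0.112, 0, 0.128 and 0 in vehicle CKO libraries. That is 448 counts against 2, a ratio of 204 with an exact 95% counting interval of 56.2 to 1692. The fitted log2 fold change was 7.44 ± 1.87 (adjusted p = 0.0445), and the call was lost without any 1 of the 4 vehicle CKO libraries (adjusted p = 0.0771, 0.125, 0.0904 and 0.0844) or without PTX CKO library 1, 2 or 4 (0.0737, 0.112 and 0.0706). In fl/fl Kcng2 had 6.64, 6.59, 2.66 and 13.6 CPM after PTX and 0.109, 0, 0.0824 and 3.33 after vehicle, where the last vehicle library overlapped the PTX range (3.04 ± 1.49, adjusted p = 0.279, or 0.0394 without that library). Kcns3 had 35.9 to 106 CPM in PTX fl/fl against 6.34 to 46.8 in vehicle fl/fl, and 43.2 to 69.4 against 0.111 to 20.0 in CKO, with no overlap in CKO (2.33 ± 0.83, adjusted p = 0.135). Kcns1 had 16.3 to 36.3 CPM in PTX fl/fl, 0 to 11.7 in PTX CKO, 0.117 to 20.0 in vehicle fl/fl and 0 to 34.8 in vehicle CKO. Kcnv1, a further silent subunit, had 60.4, 90.5, 19.5 and 17.3 CPM in PTX fl/fl against 0.437, 0.117, 10.6 and 12.8 in vehicle fl/fl, without overlap, and 0.119 to 84.4 against 0 to 23.9 in CKO, with overlap (adjusted p = 0.354 and 0.448).

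Fast Kv3 and Kv4 channels followed the same order without a call. Kcnc4, a Kv3 channel that shortens the action potential, had 43.4, 42.5, 37.4 and 32.5 CPM in PTX fl/fl and 9.18, 5.62, 25.7 and 24.5 in vehicle fl/fl, and 16.3 to 55.4 against 8.44 to 15.2 CPM in CKO. Kcnc2, also of the Kv3 class, had 62.9 to 81.8 CPM in PTX fl/fl and 0.219 to 32.9 in vehicle fl/fl, and 35.7 to 73.6 against 12.5 to 29.2 in CKO. The log2 differences were 1.26 ± 0.53 and 1.62 ± 0.54 for Kcnc4 and 2.24 ± 0.77 and 1.45 ± 0.75 for Kcnc2, in fl/fl and CKO (adjusted p from 0.11 to 0.299). Kcnd1, an A-type channel, had 130, 143, 73.5 and 17.8 CPM in PTX fl/fl against 1.64, 3.04, 11.6 and 26.4 in vehicle fl/fl. In CKO it had 121, 115, 40.7 and 49.9 against 10.3, 0, 1.02 and 23.6, without overlap. Kcnd3, the other A-type channel fixed for description, had 38.1 to 81.2 CPM in PTX fl/fl and 0 to 18.5 in vehicle fl/fl, while in CKO the fourth PTX library had 0.119 and the fourth vehicle library 28.7 CPM, so that the groups overlapped there. Adjusted p was 0.16 and 0.154 for Kcnd1 and 0.314 and 0.573 for Kcnd3.

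M-type channels of the Kcnq class gave no call. Kcnq3, a subunit of the M-type channel, had 49 counts in all 16 libraries together and was not tested. Kcnq5 had 2.76 to 27.1 CPM in PTX fl/fl against 0 to 2.64 in vehicle fl/fl, where 1 PTX library (2.76) lay just above the highest vehicle library, and 2.27 to 16.2 against 0 to 1.35 in CKO (3.56 ± 1.64 and 4.31 ± 1.71, adjusted p = 0.241 and 0.173). Kcnh2, the Erg channel better known from the heart, was lower after PTX in fl/fl without overlap, at 14.4, 23.2, 13.2 and 24.8 CPM against 42.6, 60.3, 48.3 and 51.8, but its adjusted p was 0.12. In CKO it had 77.4, 17.8, 16.1 and 55.0 CPM after PTX and 89.0, 72.5, 36.2 and 38.5 after vehicle, which overlap (-0.51 ± 0.49, adjusted p = 0.611).

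Of the auxiliary subunits of voltage-gated channels, Kcnab2, which binds Kv1 channels from inside the cell, rose in both genotypes. It had 367, 388, 271 and 235 CPM in PTX fl/fl and 60.0, 55.4, 101 and 165 in vehicle fl/fl. In CKO the PTX libraries had 314, 386, 273 and 228 CPM and the vehicle libraries 79.2, 45.3, 77.2 and 106. No PTX library came down to the highest vehicle library in either genotype. The log2 fold change was 1.73 ± 0.36 in fl/fl (adjusted p = 0.0134) and 1.97 ± 0.36 in CKO (adjusted p = 0.0139). The call was lost in fl/fl without PTX library 2 (0.0505) or vehicle library 1 (0.0513), and in CKO without PTX library 2 (0.0552) or vehicle library 2 (0.0644), all as adjusted p. Kcnab1, the related beta subunit, had 226, 172, 47.9 and 22.1 CPM in PTX fl/fl and 26.9, 1.87, 31.6 and 24.4 in vehicle fl/fl, so 1 PTX library of the later date lay within the vehicle range (2.47 ± 0.86, adjusted p = 0.116). The CKO libraries had 145, 144, 40.7 and 14.0 CPM against 24.7, 8.41, 21.6 and 12.9 (2.35 ± 0.86, adjusted p = 0.144).

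KChIP proteins, the calcium-binding partners of Kv4 channels, were higher after PTX in most libraries. Kcnip4 had 506, 316, 122 and 118 CPM in PTX fl/fl and 18.4, 0.820, 34.5 and 49.6 in vehicle fl/fl, and 194, 310, 78.7 and 86.1 against 6.17, 15.5, 2.68 and 60.5 in CKO. The groups did not overlap in either genotype, and the log2 differences of 3.36 ± 1.06 and 2.98 ± 1.04 missed the threshold (adjusted p = 0.0866 and 0.134). Kcnip1 had 47.6 to 63.5 CPM in PTX fl/fl against 0.117 to 28.9 in vehicle fl/fl, and 40.4 to 65.1 against 0.111 to 28.9 in CKO. Kcnip3, also known as DREAM, had 63.3 to 115 CPM in PTX fl/fl against 17.7 to 55.4 in vehicle fl/fl (1.40 ± 0.44, adjusted p = 0.0785), and 32.0 to 91.7 against 21.0 to 51.6 in CKO. Of the 9 auxiliary subunits tested, 7 had log2 values above 0 in each genotype, and those below 0 were Kcne4 in both, Kcne1l in fl/fl (-0.23 ± 2.11) and Kcnab3 in CKO (-1.46 ± 2.02), none of them called. Kcne4, a small single-pass subunit, had 0 counts in all PTX CKO libraries and 47.2, 0.775, 0 and 0.313 CPM in vehicle CKO. Taking 3 counts for the 4 PTX CKO libraries together as the floor, it was at least 158-fold lower there than in vehicle CKO, but 1 vehicle library held nearly all its counts and adjusted p was 0.0936.

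**Figure D2:**
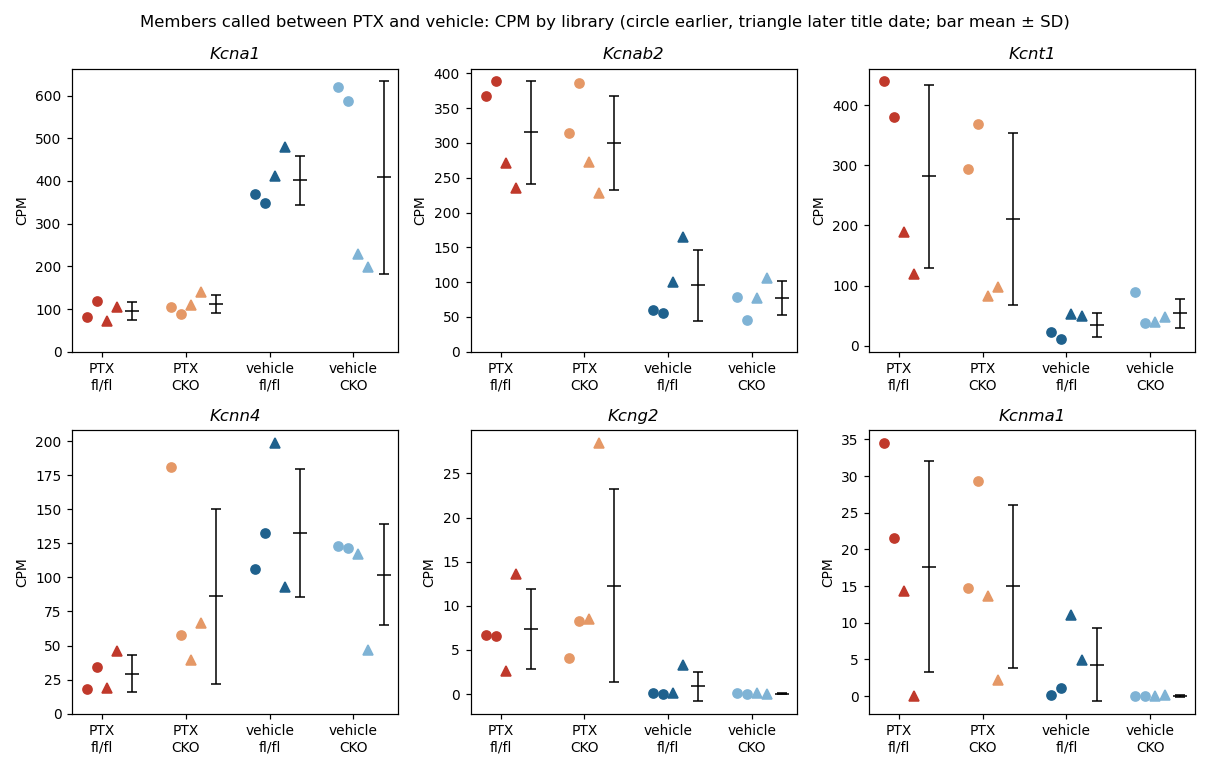
CPM (linear axis) of the 6 members called after PTX in at least 1 genotype, 1 point per library (circle earlier, triangle later title date) with the group mean and SD in black. Kcnab2 points of the PTX groups sit between 228 and 388 and those of the vehicle groups between 45.3 and 165, whereas Kcna1 points lie lower in both PTX groups than in both vehicle groups.

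Of the channels opened by calcium or sodium, Kcnt1 rose and Kcnn4 fell in fl/fl. Kcnt1 had 439, 380, 189 and 119 CPM in PTX fl/fl and 23.6, 11.4, 53.2 and 49.4 in vehicle fl/fl, a log2 fold change of 3.03 ± 0.60 (adjusted p = 0.0112). In CKO it had 294, 368, 82.7 and 98.2 CPM after PTX and 90.1, 38.5, 39.6 and 47.9 after vehicle, where the first vehicle library lay above the third PTX library (1.96 ± 0.58, adjusted p = 0.0746, or 0.0453 without that PTX library). The call in fl/fl held without any 1 of its 8 libraries. The difference between genotypes in this change was not called (interaction adjusted p = 1). Kcnt2, the related channel Slick, stayed at or below 23.9 CPM in every library and was not called.

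Kcnn4 had 17.9, 34.5, 19.2 and 46.2 CPM in PTX fl/fl and 106, 132, 199 and 93 in vehicle fl/fl, and it fell by 2.17 ± 0.49 on the log2 scale (adjusted p = 0.0194). This call was lost without PTX fl/fl library 1, 2 or 3 (adjusted p = 0.0833, 0.0572 and 0.0513) or vehicle fl/fl library 3 (0.0547). In CKO the PTX libraries had 181, 57.4, 39.5 and 66.3 CPM and the vehicle libraries 123, 122, 117 and 46.7, which overlap (-0.25 ± 0.47, adjusted p = 0.823). The interaction for Kcnn4 was 1.92 ± 0.67 with an unadjusted p of 0.0111 and an adjusted p of 1, so a difference between genotypes in its response was not called. KCa3.1 is known chiefly from red cells, leukocytes and microglia and from some sensory neurons. Macrophage markers were lower in every PTX fl/fl library (mean log2 1.49 to 4.84) than in every vehicle fl/fl library (5.27 to 7.74), in PTX CKO they were at 1.55 to 5.66 and in vehicle CKO at 4.89 to 7.86, and their part in the fall of Kcnn4 was not tested.

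Kcnma1 had 14.8, 29.3, 13.6 and 2.15 CPM in PTX CKO and 0, 0, 0 and 0.208 in vehicle CKO. With 609 counts against 2 the ratio was 278, with an exact 95% counting interval of 76.6 to 2299, and the fitted log2 fold change was 7.80 ± 1.98 (adjusted p = 0.0459). In fl/fl it had 34.5, 21.6, 14.4 and 0 CPM after PTX and 0.109, 1.17, 11 and 4.91 after vehicle (2.03 ± 1.47, adjusted p = 0.494). These counts were low, and the call in CKO was lost without any 1 of the 4 vehicle CKO libraries (adjusted p = 0.0955, 0.134, 0.109 and 0.0616) or without PTX CKO library 1 or 2 (0.091 and 0.136). Its auxiliary subunits Kcnmb1, Kcnmb2 and Kcnmb4 were not called. Kcnmb1, more abundant per length than the pore at 13 against 0.715 CPM per kb over all libraries, had 173, 157, 30.0 and 34.1 CPM in PTX fl/fl and 0.219, 5.27, 16.2 and 57.4 in vehicle fl/fl. In CKO it had 10.5 to 117 against 10.4 to 59.1 CPM. Kcnmb2 had 20.9 to 33.6 against 0 to 16.2 CPM in fl/fl, without overlap, and 8.76 to 33.9 against 0 to 12.3 in CKO, with overlap. Kcnmb4 had lower means after PTX, at 3.33 ± 1.69 against 7.71 ± 5.07 CPM in fl/fl (SD, n = 4). In CKO its means were 4.84 ± 4.45 and 5.64 ± 3.71 CPM, and its libraries overlapped in both genotypes. The small-conductance channels Kcnn1 and Kcnn3 had mean CPM of 42.2 ± 30.0 and 12.8 ± 9.45 in PTX fl/fl and 7.21 ± 6.11 and 5.30 ± 3.94 in vehicle fl/fl (SD, n = 4), with overlapping libraries. Kcnn2 had 3.71 to 11.9 CPM in PTX CKO and a count in only 1 vehicle CKO library (0.337), which gave an adjusted p of 0.0743. In fl/fl its groups overlapped, at 0.409 to 10.7 CPM after PTX and 0.165 to 12.5 after vehicle (0.57 ± 1.46, adjusted p = 0.882).

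Inward rectifiers and two-pore channels gave no call. Kcnj10 (Kir4.1), the potassium uptake channel of satellite glia, had 40.0, 52.2, 48.9 and 196 CPM in PTX fl/fl and 204, 190, 214 and 196 in vehicle fl/fl. Here 3 PTX libraries lay far below the vehicle range and the fourth within it, and the log2 difference of -1.25 ± 0.47 gave an adjusted p of 0.142. Without that library Kcnj10 was called lower (-2.09, adjusted p = 0.00822). In CKO it had 156, 77.2, 82.7 and 190 CPM against 225, 316, 255 and 128 (-0.87 ± 0.46, adjusted p = 0.316). The satellite glial marker mean was 6.40 to 7.73 in PTX fl/fl and 8.46 to 8.88 in vehicle fl/fl, and 7.20 to 8.25 and 7.32 to 8.99 in CKO. Its part in the Kcnj10 values was not tested. Kcnj16, which joins Kir4.1, varied from 0.234 to 45.1 CPM over all libraries, with a change of -0.61 ± 1.12 in fl/fl and 0.37 ± 1.11 in CKO. The classical rectifier Kcnj2 had 0.166 to 3.78 CPM in PTX fl/fl and 3.54 to 10.8 in vehicle fl/fl (-2.17 ± 1.18, adjusted p = 0.336), and 0.197 to 15.3 against 5.27 to 24.1 in CKO (-1.07 ± 1.14, adjusted p = 0.65).

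Kcnj8, the pore of the vascular ATP-sensitive channel, had 0 counts in all PTX CKO libraries and 12.5, 0, 17.1 and 20.6 CPM in vehicle CKO. With the same floor it was at least 162-fold lower in PTX CKO, with an adjusted p of 0.0585. In fl/fl it had 0.415, 0.791, 6.23 and 0 CPM after PTX and 21.7, 0.117, 15.7 and 13.8 after vehicle. Abcc9, the sulfonylurea receptor that pairs with it, had a mean of 0.637 CPM in PTX CKO and 11.3 in vehicle CKO, without overlap and without a call (adjusted p = 0.21). Kcnj8 is known from pericytes and smooth muscle, and mural markers had a mean log2 of 2.26 to 6.24 in PTX CKO and 5.42 to 6.70 in vehicle CKO; their part was not tested.

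The two-pore channel Kcnk18 (TRESK), known from sensory neurons, had 1135 and 646 counts in the PTX fl/fl and CKO groups and 54 and 10 in the vehicle groups. By library it had 46.0, 34.3, 8.58 and 10.9 CPM in PTX fl/fl and 0.219, 0, 0 and 4.32 in vehicle fl/fl, and 20.9, 30.9, 3.71 and 8.59 against 0, 0.443, 0.384 and 0.313 in CKO. The groups did not overlap in either genotype, and the log2 differences of 4.43 ± 1.52 and 5.76 ± 1.65 gave adjusted p of 0.111 and 0.067. Kcnk2 (TREK-1) had means of 11 ± 6.08 and 14.4 ± 8.83 CPM in PTX and vehicle fl/fl (SD, n = 4) and 8.15 ± 6.39 and 6.76 ± 5.69 in CKO. Kcnk1 (TWIK-1), with 18.1 to 29.4 CPM in PTX fl/fl and 20.9 to 39.8 in vehicle fl/fl, and Kcnk3 (TASK-1), with 12.3 to 51.1 against 8.07 to 23.9, overlapped as well. Kcnk13, another leak channel, had 19.2 ± 14.8 CPM in PTX fl/fl and 14.1 ± 10.8 in vehicle fl/fl. Kcnk5 (TASK-2) was lower after PTX in fl/fl without overlap, at 3.16, 6.86, 4.39 and 8.43 CPM against 14.6, 22.2, 49.3 and 10.3 (-2.08 ± 0.85, adjusted p = 0.184), and overlapped in CKO. Kcnq1ot1, the non-coding RNA, had 64.5 ± 21.9 and 103 ± 41.1 CPM in vehicle fl/fl and CKO and 39.9 ± 20.0 and 43.8 ± 28.7 after PTX, and Kcnrg stayed at or below 4.66 CPM.

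**Figure D3:**
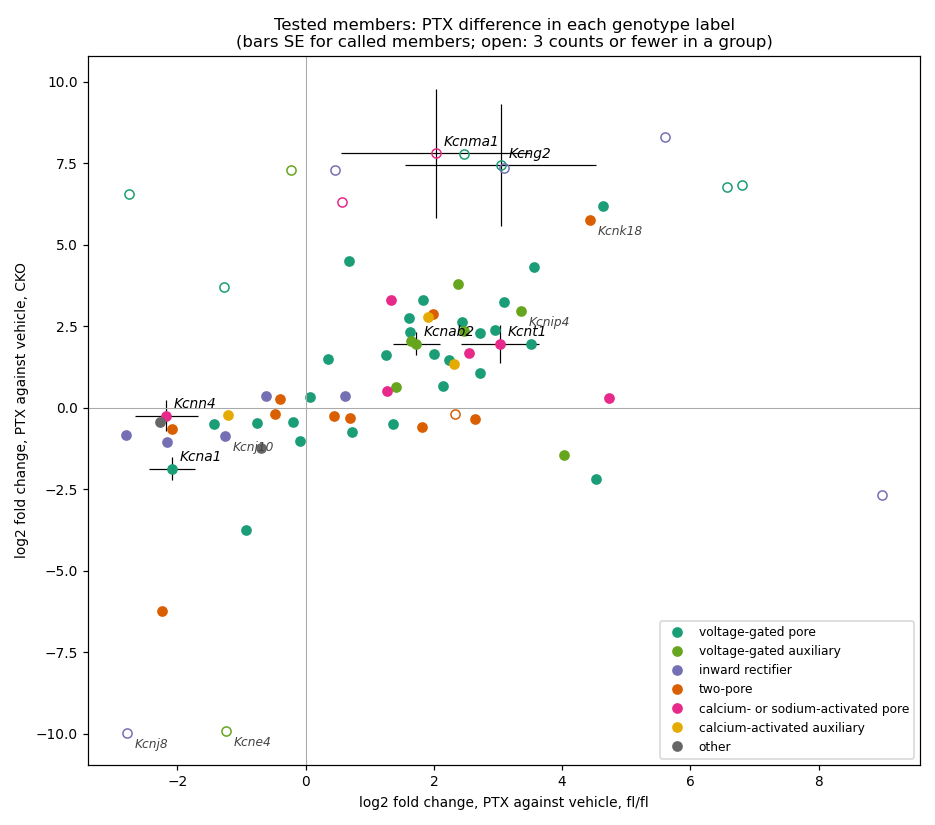
Log2 fold change after PTX in fl/fl (x axis) and in CKO (y axis) for the 76 tested members, coloured by subfamily, with SE bars for called members and open points where a group had 3 counts or fewer, for which the fitted value is no bound. Most voltage-gated points have values above 0 on both axes and Kcna1 lies below 0 on both, whereas inward rectifiers and two-pore channels are spread on both sides of 0.

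Counted over the family, PTX against vehicle in fl/fl gave 2 of 76 members higher and 2 lower, 2.63% each, where 3.2% of all 14200 genes tested were higher and 1.76% lower. The share of called members was thus near that of all genes in both directions. In CKO 3 of 76 were higher and 1 lower, 3.95% and 1.32%, where 2.22% of all genes were higher and 0.359% lower. Fold changes of members were higher than those of all genes: the median log2 value was 1.62 in fl/fl and 1.39 in CKO (1.21 with members at 0 counts in a group placed at their bound), against -0.01 and 0.02 over all genes tested. Values above 0 were found for 53 of 76 members in fl/fl and 48 in CKO. Before the filter, the group mean was higher after PTX for 64 and lower for 25 of the 90 members with a count in fl/fl, and for 53 and 30 in CKO.

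Groups that did not overlap were counted as well. In fl/fl, all PTX libraries were above all vehicle libraries for 19 of 76 members (25%), where 11% of all genes tested did so, and below them for 4 (5.26%), where 7.8% did. In CKO the counts were 16 (21.1%, all genes 8.91%) and 2 (2.63%, all genes 4.54%). In both genotypes at once 9 members were higher (11.8%, all genes 4.58%), among them Kcnab2, Kcnb2, Kcnc2, Kcnc4, Kcnip1, Kcnip4, Kcnk18 and Kcnq5. Kcna1 alone was lower in both (1.32%, all genes 1.39%). These shares describe the 76 members that passed the filter. Of the 15 sensory neuron markers, 13 and 14 were higher without overlap in fl/fl and CKO, with median log2 values of 2.45 and 2.30.

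By subfamily, the median log2 value in fl/fl and CKO was 1.83 and 1.94 for 33 voltage-gated pores, 1.73 and 2.06 for 9 of their auxiliary subunits, and 1.68 and 1.82 for 8 calcium- or sodium-activated pores. With members at 0 counts in a group placed at their bound, the CKO median of the voltage-gated pores was 1.64. For 10 inward rectifiers it was -0.08 and -0.24, and for 11 two-pore channels 0.70 and -0.26. Values above 0 were found for 25 and 24 of the 33 voltage-gated pores, 5 and 5 of the 10 inward rectifiers, and 7 and 3 of the 11 two-pore channels. Differences between subfamilies were not tested.

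With the neuronal marker mean as a covariate, which itself did not overlap between treatments, no member was called in either genotype (all genes 0% in fl/fl and 0.0141% in CKO) and the family's median was 0.01 in fl/fl and 0.02 in CKO, with Kcnab2 at 0.25 and 0.64, Kcnt1 at 0.72 and -0.36, and Kcna1 at -1.84 and -1.64; with the glial marker mean, likewise no member was called (all genes 0% and 0.00704%), and Kcna1 was at -0.70 and -0.80. Without the 4 PTX libraries of the earlier date no member was called either (all genes 0.0272% and 0%), with values of -2.22 and -1.72 for Kcna1 and 1.36 and 1.69 for Kcnab2.

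Known partners of these channels were described from a list of 21 genes, of which 17 were tested. In fl/fl 2 were higher (11.8%, all genes 3.2%) and 0 lower (all genes 1.76%). In CKO 1 was higher (5.88%, all genes 2.22%) and 0 lower (all genes 0.359%). Nedd4l, a ubiquitin ligase that acts on several channels, rose in both, from 34.6 to 243 CPM in group means in fl/fl (2.81 ± 0.53, adjusted p = 0.009) and from 32.7 to 200 in CKO (2.61 ± 0.52, adjusted p = 0.0184). Dpp6, the Kv4 partner protein, rose in fl/fl from 49.5 to 391 CPM (2.98 ± 0.73, adjusted p = 0.0295) and had 41.2 and 219 CPM in CKO (2.41 ± 0.72, adjusted p = 0.0792). Cntn2 and Cntnap2, which hold Kv1 channels beside the node, had log2 values of 1.95 ± 0.77 and 1.81 ± 0.75 in fl/fl and 2.18 ± 0.78 and 2.05 ± 0.76 in CKO without a call, and thus lay on the other side of 0 from Kcna1. Of the other genes listed for this Kv1 complex, Dlg2, Dlg4 and Adam22 were also above 0 in both genotypes. Dlg1 lay on the side of Kcna1, at -1.47 ± 0.96 in fl/fl and -0.85 ± 0.95 in CKO. None of these was called. Rest, a repressor of neuronal genes that is known to act on Kcn genes, had 8.94 CPM in PTX fl/fl and 40.8 in vehicle fl/fl, without overlap (-2.19 ± 0.74, adjusted p = 0.107). Its CKO means were 23.4 and 33.2 CPM, with overlapping libraries (-0.51 ± 0.71, adjusted p = 0.743).

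The genotype comparison asks whether deletion of Ltbr in Nav1.8-positive neurons alters the members under either treatment. Under PTX 0 of 76 members were called between CKO and fl/fl, as were 0% of all genes tested, while at an unadjusted p under 0.05 2 members were higher and 3 lower, where 1.33% of all genes were higher and 0.542% lower. Of the members, limma-voom and DESeq2 also called 0, and of all genes they called 0% and 0.0704%. The median log2 value of members was -0.25. Kcnn4 had the smallest p (1.55 ± 0.48, unadjusted p = 0.00531, adjusted p = 1), with PTX CKO libraries between 39.5 and 181 CPM and PTX fl/fl libraries between 17.9 and 46.2. All PTX CKO libraries were below all PTX fl/fl libraries for 4 members (5.26%, all genes 1.37%), among them Kcnh7, Kcnh8 and Kcns1, and above them for 0 members (all genes 0.69%). Within each title date of PTX alone the number of members called was also 0. Of all genes tested there, 0 of 13397 were called on the earlier and 0 of 13132 on the later date.

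Under vehicle, edgeR called 0 of 76 members between genotypes, where 0.0211% of all genes were called. At an unadjusted p under 0.05, 3 were higher and 7 lower, where 1.35% of all genes were higher and 3.26% lower. For limma-voom the count of members was 0 (all genes 0%), and DESeq2 called 2 (all genes 0.585%), Kcnj9 higher and Kcnma1 lower in CKO. Kcnj9, a G protein-gated rectifier, was listed with counts in only 1 vehicle CKO library (11.2 CPM) and in none of the vehicle fl/fl libraries. Within the earlier and the later vehicle date alone 0 members were called (all genes 0 of 12567 and 0 of 13349), and the family's median was 0.59 and -0.56. For the interaction of genotype and PTX, edgeR called 0 of 76, against 0.00704% of all genes, with 5 members above and 4 below 0 at an unadjusted p under 0.05, where 2.19% and 1.15% of all genes were. There limma-voom called 0 (all genes 0%) and DESeq2 1, Kcnj9 (all genes 0.352%).

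Members also differed between the title dates of the PTX libraries. All 4 earlier PTX libraries, 2 of each genotype, were above all 4 later ones for 10 of 76 members, where 12.7% of all genes were, and below them for 2, where 9.75% of all genes were. The first share was close to that of all genes. The 10 were Kcnab1, Kcnab2, Kcnd1, Kcnip4, Kcnj3, Kcnk18, Kcnma1, Kcnmb1, Kcnt1 and Kcnv1. Kcnt1 had a mean of 370 CPM on the earlier and 122 on the later date, Kcnip4 331 and 101, and Kcnab1 172 and 31.2. Kcnab2 had 364 and 251. Kcnk7 and Kcnq1ot1 were lower on the earlier date, the latter at 23.6 and 60.1 CPM. Kcna1 overlapped between the dates. For the vehicle dates 0 members were higher, where 0.754% of all genes were, and Kcnip3 alone was lower on the earlier date, where 1.94% were. The neuronal marker mean of the PTX libraries was 9.48 to 10.0 on the earlier and 8.68 to 9.29 on the later date, and the neutrophil marker mean 3.66 to 8.43 and 10.4 to 12.4. Their part in the date differences was not tested.

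**Figure D4:**
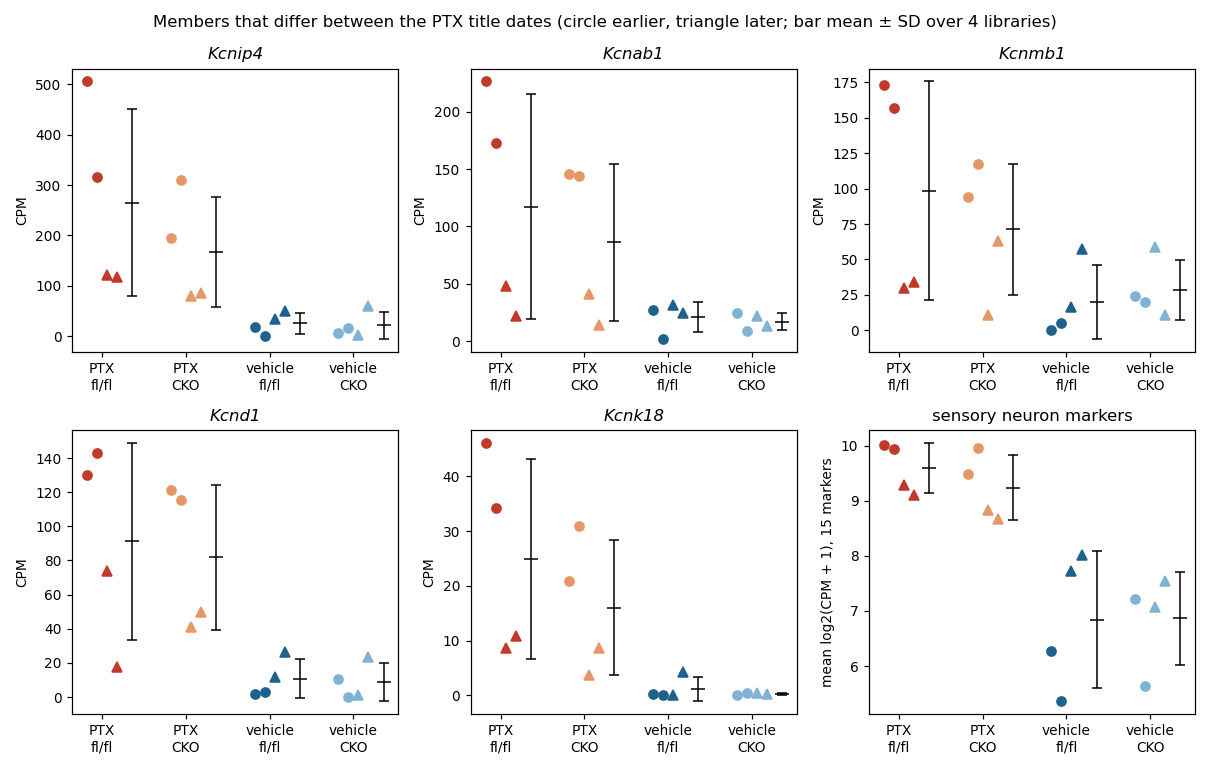
CPM (linear axis) by library of 5 of the 10 members whose earlier PTX libraries were all above the later ones (Kcnip4, Kcnab1, Kcnmb1, Kcnd1 and Kcnk18), and the mean log2(CPM + 1) of 15 sensory neuron markers, with circles for the earlier and triangles for the later title date and the group mean and SD in black. Circles lie above triangles in both PTX groups of each panel, with Kcnip4 at means of 331 and 101 CPM over the PTX libraries of the earlier and later date.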

How the data were processed

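The authors' deposited values are raw counts per gene; per the submitters' processing notes, bcl2fastq, TopHat2 and HTSeq were used with mm9, and versions and the strand setting are not given in the sources used here. Per the labels' protocols, libraries were made with a strand-marking poly(A) kit from roughly 500 ng of RNA and read as single ends of 50 bases. Reads of overlapping genes (Kcnq1 and Kcnq1ot1) may therefore not be separable.

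Genes were filtered with filterByExpr (14200 kept), scaled by TMM and fitted in 1 model over 16 libraries with edgeR 4.0.16 in R 4.3.3 (robust quasi-likelihood, 12 residual degrees of freedom, common biological coefficient of variation 0.939), two-sided, Benjamini-Hochberg over all genes. CPM uses TMM-scaled library sizes. The 5 summary lines of each file were left out. Lengths are union exons of GENCODE M21 (GRCm38), not the authors' annotation, and promoters are RefSeq's. Intervals and floors (3 counts over a group) cover counting error only.

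The members, marker and partner lists were chosen with earlier results of these data known. Named are called members, the 4 most abundant of each subfamily (2 of auxiliary classes), 20 members of textbook interest, and members without overlap in both genotypes; others named were chosen after their values were seen; a few of the members it picks are not described here. The alternatives tried were scaling by upper quartile or RLE, a filter of 5 CPM in 4 libraries or none, a replicate block, title date, marker covariates, limma-voom (limma 3.58.1), DESeq2 1.42.0, the compared groups alone and each library left out. Replicate numbers deviated together in the genotype comparison under PTX (correlations 0.233 to 0.481, 5 of 8 libraries closest to their own number), where the block changed no call. On simulated data for PTX in fl/fl (13786 genes), 0% of 2-fold, 18% of 4-fold, 36% of 8-fold and 62% of 16-fold changes were recovered. For the interaction the shares were 0%, 2%, 10% and 32%. Changes were placed only in genes with a mean of at least 5 CPM, so recovery for members at lower levels was not simulated.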

Additional observations from a re-analysis of the deposited data

Results flagged for a closer look

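In 143 groups of 4 libraries, 20 held 1 library far from the other 3 by Dixon's ratio on CPM. Chance gives about 1 in 20 groups for normally distributed values, and that rate does not hold for members with few counts. A group with 0 in 3 libraries is flagged at any count in the fourth, as for Kcnma1 in vehicle CKO. Members also share their libraries, so the flags are not independent.

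Among channels called after PTX, Kcnn4 in vehicle CKO had 46.7 CPM in library 4 and 117 to 123 in the others, Kcng2 in vehicle fl/fl had 3.33 in library 4 and at most 0.109 in the others, and Kcnma1 in vehicle CKO had 0.208 in library 4 and 0 in the others. Kcnj10, the satellite glial rectifier, had 196 CPM in PTX fl/fl library 4 and 40.0 to 52.2 in the others, and Kcnj8 had 6.23 in PTX fl/fl library 3 and at most 0.791 in the others.

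Voltage-gated members apart were Kcna2 in PTX CKO library 1 (28.4 CPM), Kcnd3 in library 4 of vehicle fl/fl (18.5) and of vehicle CKO (28.7), and Kcnq3 in PTX CKO library 2 (2.18) and vehicle CKO library 4 (0.313). Two-pore members apart were Kcnk3 in PTX CKO library 4 (30.2 CPM), Kcnk2 in vehicle fl/fl library 3 (27.7) and Kcnk18 in vehicle fl/fl library 4 (4.32). Of the calcium- and sodium-activated class, Kcnn1 (21.5 CPM), Kcnmb2 (12.3) and Kcnt2 (3.70) were high in vehicle CKO library 1, and Kcnt2 was high in vehicle fl/fl library 2 (6.79). Kcnrg was high in library 4 of PTX fl/fl (1.32), PTX CKO (1.67) and vehicle CKO (1.98).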

How the results depend on the processing

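For PTX in fl/fl, 4 members were called in the reported analysis and 0 without the earlier PTX date, with the neuronal or with the glial marker covariate; limma-voom called 40 (33 higher, 7 lower, where 18.8% and 18.4% of all genes were called), DESeq2 15 (12 and 3, all genes 5.92% and 4.76%), and leaving out 1 library gave 2 to 8 (all genes 1.22 to 5.79%). With the compared groups alone it also had 4 (all genes 3.58%), but Kcnab2 was lost and Kcnh2 gained. For PTX in CKO the 4 calls became 2 with RLE scaling (Kcng2 and Kcnma1 lost, all genes 2.08%). Without a filter they became 3 (Kcng2 lost, 336 of 17481 genes called). They became 0 without the earlier PTX date and with either covariate. The count was 22 with limma-voom (all genes 18.9%) and 19 with DESeq2 (all genes 9.44%). It was 1 (Kcnab2) with the compared groups alone (159 of 12734 genes called) and 0 to 5 with 1 library left out (all genes 0.207 to 3.77%). Both covariates differ between treatments without overlap, in part by construction, so a call lost with them does not show its cause. With a replicate block 3 calls were kept in fl/fl (Kcnn4 lost, adjusted p = 0.0538, all genes 2.54%). In CKO 2 were kept (Kcng2 and Kcnma1 lost, adjusted p = 0.0817 and 0.109, 126 of 14200 genes called). In these comparisons replicate numbers share only a number (same-number correlations -0.203 to -0.17 in fl/fl, -0.0112 to 0.111 in CKO, and -0.049 to 0.0209 for genotype under vehicle). Between genotypes DESeq2 called 2 under vehicle and 1 for the interaction, and all other settings run called 0. With the glial covariate Kcnn4 was at 0.0202 and Ltbr at 0.00904 for PTX in fl/fl, reversed in sign, and the cause was not tested. Over 190 results of single genes and 4114 alternatives to them, 3674 kept direction and side of the threshold, 66 lost and 50 gained a call, 2 reversed (those of Kcnn4 and Ltbr above) and 322 changed the sign of a value that was not called or had no adjusted p. The median log2 value of members for PTX ranged from 0.01 to 2.24 in fl/fl and 0.02 to 2.20 in CKO. Depth limits the members with few counts, of which 19 were not tested.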
